A study of Homo sapiens with 40 samples.

Results

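MII-spheres stimulated with TGFβ were compared with MI-spheres given the same stimulation, across all genes. The comparison rests on 6 of the 40 samples of the series, which holds 24 RNA-seq libraries: the 3 libraries labelled as stimulated MII and the 3 labelled as stimulated MI, taken by their labels alone. MI is MCF-10A, an immortalised line of human breast epithelial cells that does not form tumours, and MII is its HRAS-transformed derivative, MCF-10AneoT. Both lines carry no further engineered allele according to the labels, both were grown as spheres in 3D on ultra-low attachment plates, and both received TGFβ1 at 2.5 ng/ml for 16 h. The study as a whole asks how TGFβ changes chromatin and transcription in normal-like and oncogenic mammary spheres. It also holds unstimulated spheres of both lines, with 3 RNA-seq libraries each, chromatin accessibility data of the same 4 conditions, and MDA-MB-231 breast cancer cells with and without the transcription factor SLUG. Each line is a single cell line, so HRAS and everything else in which the lines differ cannot be told apart. The labels call the 3 libraries of a group biological replicates without saying how the cultures were separated, so the p-values below measure the spread between these libraries.

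TGFβ binds paired receptor kinases at the cell surface, which phosphorylate SMAD2 and SMAD3, and these enter the nucleus with SMAD4 and change the transcription of genes for matrix, adhesion and cell cycle control. In normal mammary epithelium this pathway holds cells back before DNA synthesis. HRAS is a small GTPase that, when locked in its active state, drives the RAF, MEK and ERK kinases and with them growth factor-independent growth, and tumours that carry active RAS can respond to TGFβ by moving and invading instead of arresting.

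The stimulated MI libraries held between 21113284 and 28523441 counts and the stimulated MII libraries between 15370453 and 15587660. Replicates resembled each other closely, with Pearson correlations of log2 CPM (counts scaled to a fixed library total) across genes between 0.994 and 0.996. A single library stood apart: the second stimulated MI library had at least 1 count for 36371 genes, against 27862 and 29871 in the other MI libraries and 26568 to 26825 in MII. Of the genes it alone detected within its group, 6955 in number, the median count was 1 and 29 could be tested. Reads assigned to mitochondrial genes took 0.423% to 0.572% of the counts in MI and 1.02% to 1.18% in MII. Reads assigned to ribosomal RNA genes took 0.03% to 0.0523% and 0.228% to 0.325%. Mitochondrial ribosomal RNA genes count in both shares, so these are not separate measures. Each share was higher in every MII library than in any MI library, and the part of these shares in the gene differences below was not tested.

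HRAS was higher in every MII library. It was measured at 54, 60.1 and 56.6 CPM in stimulated MI and at 189, 187 and 198 CPM in stimulated MII, a 3.37-fold difference (log2 fold-change 1.75, SE 0.06, adjusted p = 7.31e-18, edgeR quasi-likelihood test). The ranges of the lines did not overlap. In the unstimulated spheres the log2 fold-change was 2.45, with 39.7 ± 0.899 CPM in MI and 217 ± 3.56 in MII (SD, n = 3). The counts do not separate the introduced HRAS transcript from the endogenous one.

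Stimulated MII- and MI-spheres differed in a large share of their transcriptomes. Of 15878 genes tested, 9950 passed an adjusted p of 0.05 (62.7%), 4937 of them higher in MII (31.1%) and 5013 lower (31.6%). A differentially expressed gene (DEG) is here a gene that passed this test and whose log2 fold-change was above 1 or below -1. There were 3138 DEGs (19.8%), of which 1940 were higher in MII (12.2%) and 1198 lower (7.55%). The median log2 fold-change over all genes tested was 0.0044, which the TMM scaling keeps near 0, so the fold-changes are relative to the typical gene. With 3 libraries against 3 an exact permutation test of a single gene cannot go below p = 0.1, so the p-values come from the model fitted across all genes.

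**Figure D1:**
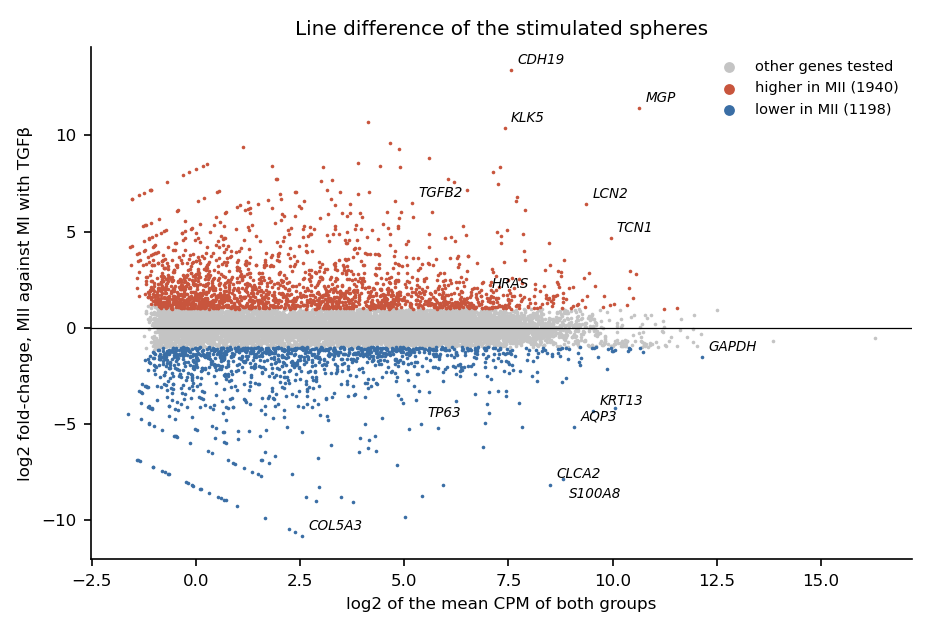
Line difference of the stimulated spheres, with a point for each of the 15878 genes tested: the log2 of the mean CPM of both groups on the horizontal axis and the log2 fold-change of MII against MI on the vertical axis. The 1940 red genes were higher in MII and the 1198 blue genes lower, and labelled genes such as MGP (11.40) and CLCA2 (-8.14) lie at the edges of the cloud.

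The genes with the highest log2 fold-changes among those that reached a mean of 10 CPM encode adhesion, secreted and signalling proteins that were near 0 in MI-spheres. MGP, a secreted inhibitor of calcification that also binds bone morphogenetic proteins, was at 1.13, 1.28 and 1.14 CPM in MI and at 3260, 3212 and 3131 CPM in MII, with a log2 fold-change of 11.40 (SE 0.08, adjusted p = 1.74e-29). Its gene lies on chromosome 12 between 14880864 and 14885857 (GRCh38.p13). CDH19, a cadherin best known from Schwann cells, had 2 counts in the 3 MI libraries together and 17202 in the MII libraries, at 368 to 387 CPM. The ratio of the CPM was 13010, with a 95% counting interval from 3601 to 107438. NPY1R, a receptor for neuropeptide Y, had 1 count in MI and 1592 in MII (ratio 2408, interval 432 to 95174), and LINGO2, a leucine-rich repeat membrane protein, had 3 and 744 (ratio 375, interval 128 to 1823). The intervals cover counting error only. The rule that named these genes required that the lines did not overlap. Of all genes tested 66.5% did not overlap (32.9% higher and 33.6% lower in MII).

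Further genes of this kind were near 0 or low in MI and far above it in MII. SEMA3E, a secreted guidance cue of the semaphorin family, was at 0.0785 to 0.383 CPM in MI and 94.3 to 98.2 CPM in MII (log2 fold-change 8.84). The sodium-glucose cotransporter SLC5A1 was at 0 to 0.157 CPM in MI and 56.3 to 61.9 CPM in MII (9.29), and the glucosidase-like gene MGAM2 at 0 to 0.128 CPM and 29 to 29.9 CPM (8.54). The vitamin B12-binding protein TCN1 was already present in MI, at 72.2 to 81.1 CPM, and stood at 1886 to 1934 CPM in MII (4.65). Each of these genes was higher in all 3 MII libraries than in any MI library.

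The genes with the lowest log2 fold-changes under the same rule encode matrix proteins, enzymes and structural proteins. COL5A3, a chain of the fibril-forming collagen V, had 804 counts in stimulated MI (10.6 to 13.9 CPM) and none in the 3 MII libraries, so it was at least 177-fold lower in MII, taking 3 counts over the group as the floor. ALOX15B, an arachidonate lipoxygenase, had 4459 counts in MI and 3 in MII (ratio 983, interval 336 to 4767). TMTC1, an O-mannosyltransferase, had 1850 and 2 (ratio 612, interval 169 to 5053), and the matrix proteins COL3A1 and DCN had 850 and 1 counts and 1059 and 2 counts, the latter with a ratio of 350 (interval 96.7 to 2894).

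EMD, which encodes the nuclear envelope protein emerin and is expressed in most cell types, had 1514 counts in MI-spheres, at 21.2 to 23.1 CPM, and 2 counts in MII-spheres (ratio 500, interval 138 to 4136). It was likewise without a count in unstimulated MII, against 17.7 CPM in unstimulated MI. SNCAIP, which encodes a partner of α-synuclein, was at 84.3 to 89.5 CPM in MI and at most 0.269 CPM in MII (log2 fold-change -8.71). LCP1, an actin-bundling protein of blood cells and many carcinoma lines, was at 122 ± 7.77 CPM and 0.419 ± 0.133 CPM (SD, n = 3, log2 fold-change -8.15). All 3 were named by a rule that required the lines not to overlap.

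Genes with strong expression in MI stood among those with the smallest adjusted p on the lower side. CLCA2, a membrane protein of stratified epithelium and a p53 and p63 target, was at 732, 674 and 764 CPM in MI and at 2.98, 2.16 and 2.49 CPM in MII (log2 fold-change -8.14, SE 0.09, adjusted p = 1.01e-26). The alarmin S100A8 was at 850, 827 and 993 CPM against 4.11, 3.67 and 3.56 CPM (-7.87, SE 0.09), and the monoamine oxidase MAOA at 224 to 244 CPM against 3.02 to 3.45 CPM (-6.19). The water and glycerol channel AQP3 was at 1025 to 1081 CPM in MI and 27.9 to 32.3 CPM in MII (-5.15), although it lies on chromosome 9, whose genes were shifted upwards in MII as described further on. KRT13, a keratin of stratified mucosa, was at 1398 to 1424 CPM and 64.2 to 72.8 CPM (-4.33).

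**Figure D2:**
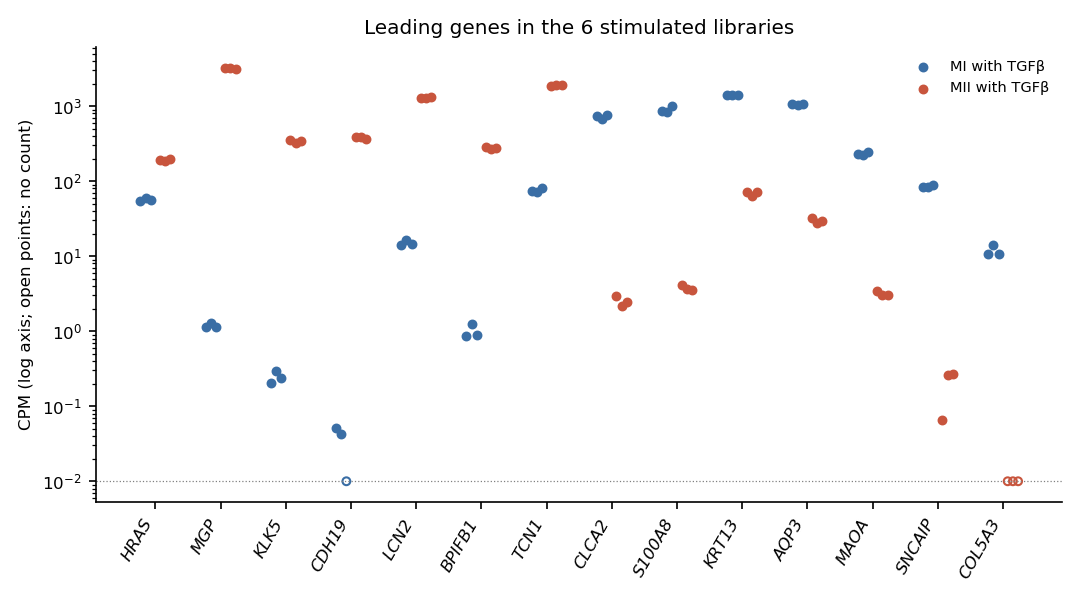
CPM (log axis) of 14 leading genes in each of the 6 stimulated libraries, with 3 points per line for each gene and open points for libraries without a count. The 3 MI points and the 3 MII points of each gene lie apart, from HRAS (54 to 60.1 against 187 to 198 CPM) to COL5A3 (10.6 to 13.9 against 0 CPM).

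The gene groups below were taken from 43 lists of pathway, cell type and family genes, with 1180 distinct genes found in the files, of which 1012 could be tested. Of these, 364 were higher in MII at an adjusted p of 0.05 and 464 lower. Counts of list members are given beside the shares over all genes tested (31.1% higher and 31.6% lower), and list medians beside the median of 0.0044 over all genes tested. Since the spheres were measured in bulk, fewer cells of a type and less RNA per cell cannot be told apart.

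**Figure D3:**
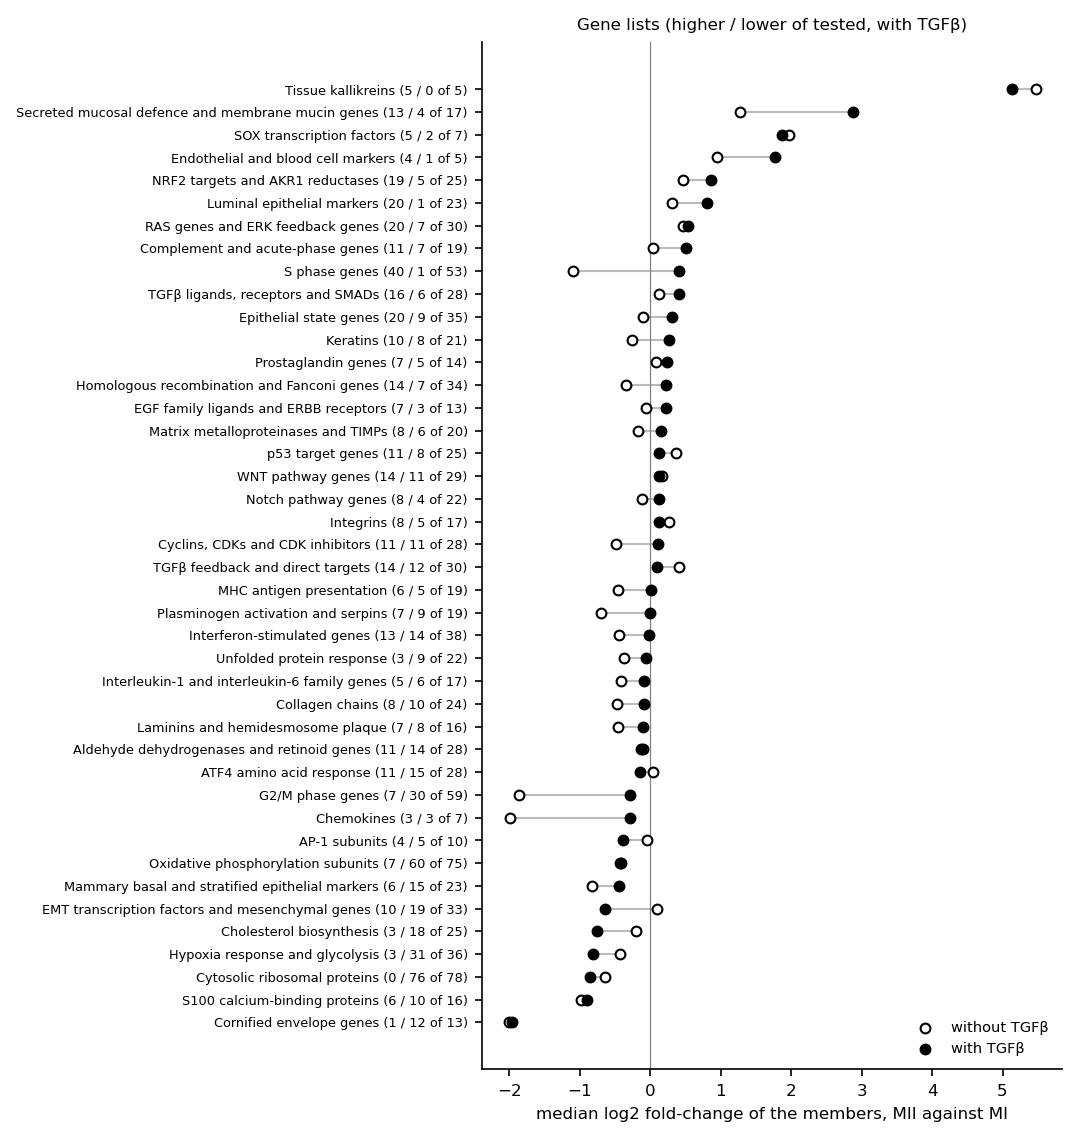
Median log2 fold-change of MII against MI over the tested members of each list with at least 5 tested members, with TGFβ (filled) and without (open). Each label gives the members higher and lower in MII with TGFβ and the number tested. Medians with TGFβ run from -1.96 for the cornified envelope genes to 5.13 for the kallikreins, of which 5 of 15 were tested and whose median was -0.48 without the low-count filter, and the S phase genes lie on opposite sides of 0 without (-1.10) and with TGFβ (0.41).

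Markers of the basal and stratified mammary epithelium were mostly lower in MII and luminal markers mostly higher. Of 23 basal markers tested, 6 were higher in MII and 15 lower, with a median log2 fold-change of -0.44. TP63, the transcription factor that maintains basal epithelium, was at 79.9 to 85.5 CPM in MI and 2.36 to 2.78 CPM in MII (-4.97, SE 0.10, adjusted p = 5.98e-22). The hemidesmosome collagen COL17A1 was at 489 to 521 CPM against 70.5 to 79.1 CPM (-2.77), the desmosomal cadherin DSC3 at 426 to 492 against 80.3 to 84.8 CPM (-2.47), and the basal keratin KRT5 at 539 to 561 against 190 to 202 CPM (-1.48). KRT6B went the other way, from 30 to 33.6 CPM in MI to 657 to 722 CPM in MII (4.43), as did KRT14 (3.83 to 4.68 against 19.4 to 26.9 CPM, 2.54). MCF-10A is usually described as KRT14-positive, and these MI-spheres held as few as 90 KRT14 counts in a library.

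Of 23 luminal markers tested, 20 were higher in MII and 1 was lower, with a median of 0.81. The simple keratin KRT8 was at 778 to 789 CPM in MI and 1732 to 1853 CPM in MII (1.20), its partner KRT18 at 532 to 571 and 880 to 933 CPM (0.72), and the adhesion molecule EPCAM at most 140 CPM in MI and at least 284 CPM in MII (1.17, SE 0.05). PROM1, which encodes the stem cell surface protein CD133, was at 0 to 0.157 CPM and 4.91 to 6.1 CPM (6.42). MUC1 was the only luminal marker lower in MII (-0.65), while the estrogen receptor gene ESR1 did not pass the test and stayed near 2 CPM in both lines, at 2.06 to 2.47 in MI and 2.28 to 2.45 in MII. Hence both sets of markers were present in both lines, and the balance between them differed.

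Keratins as a family were split, with 10 of 21 higher and 8 lower (median 0.27). Those lower in MII included KRT13 (-4.33), KRT4 (-7.11) and KRT6A (-3.29) of stratified epithelium and KRT78, which had 67 counts in MI and 0 in MII, and those higher included the simple keratins KRT8, KRT18, KRT19 (1.23) and KRT20 (3.32). Of the cornified envelope genes, which build the outer layer of stratified epithelium, 13 of 25 could be tested, and 12 of them were lower in MII (median -1.96). The envelope precursor IVL was at 59.8 to 73.4 CPM in MI and 14.2 to 19.9 CPM in MII (-1.96), and the cross-linking enzyme TGM1 had a log2 fold-change of -3.56. PADI1, a peptidyl-arginine deiminase, was the member that was higher (1.66). S100 proteins, many of them coexpressed with cornification, were lower for 10 of 16 (median -0.90), among them S100A8, S100A9 (at least 1893 CPM in MI, log2 fold-change -4.18), S100A2 (-2.14) and S100A7 (-6.40). S100A4, a member linked to cell motility, was higher, at 68.5 to 80.6 CPM in MI and 809 to 865 CPM in MII (3.50).

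Among 35 epithelial state genes tested, 20 were higher in MII and 9 lower (median 0.31). E-cadherin, encoded by CDH1, was higher by 0.47 on the log2 scale, and the epithelial regulator GRHL2 was at 141 to 146 CPM in MII and lower in each MI library, from 99.3 CPM (0.50, SE 0.05). Tight junction genes stood among the higher members, such as TJP3 (40 to 42.2 against 118 to 128 CPM, 1.59) and CLDN1 (at most 48.8 CPM in MI and up to 114 CPM in MII, 1.20). The desmosomal plaque gene DSP (-1.19) and the keratinocyte differentiation factor GRHL3 (-3.01) were lower.

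Markers of other cell types that the cultures could hold were low or split. The blood cell markers PTPRC, CD3E, CD68 and HBB had 0 to 3 counts in each library. Of the fibroblast markers, PDGFRA and COL1A2 had at most 6 counts in any library. PDGFRB had 4 to 32 counts in MI and 3 in each MII library, and LUM had 10 to 21 and 0 to 1. DCN, at 298 to 432 counts per MI library, and COL3A1, at 265 to 309, were at 0 to 2 counts in MII. Of 10 fibroblast markers 4 could be tested, with 3 lower in MII and 0 higher. Of 12 endothelial and blood cell markers 5 could be tested, with 4 higher and 1 lower. PECAM1, an adhesion molecule of endothelium and platelets, had 213 to 231 counts in MI and 1321 to 1529 in MII (log2 fold-change 3.27), whereas the endothelial marker VWF had 15 to 36 and 2 to 5 (-2.32). LYZ, which the same list holds as a myeloid marker, is also a secretory epithelial gene and had 8 counts in MI and 1912 in MII. The other blood cell markers named here were therefore at or near 0 in both lines, and of the fibroblast markers DCN and COL3A1 were detected well above 0 in MI.

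Secreted defence genes of mucosal surfaces were mostly higher in MII. Of 24 listed genes for mucosal defence and membrane mucins, 17 could be tested, and 13 were higher in MII and 4 lower (median 2.88, against 1.28 in unstimulated spheres, and 1.44 with TGFβ without the low-count filter). Members such as LYZ passed the filter through the MII libraries only, so these counts describe the genes tested and not the whole list. LCN2, an iron-siderophore-binding lipocalin, was at 14.2, 16.5 and 14.6 CPM in MI and 1290, 1305 and 1315 CPM in MII (6.43, SE 0.07, adjusted p = 1.01e-26). BPIFB1, a secreted airway and salivary defence protein, was at 0.875 to 1.23 CPM and 272 to 282 CPM (8.10), the polymeric immunoglobulin receptor PIGR at 0.515 to 1.18 CPM and 145 to 147 CPM (7.55), and the bacteriolytic enzyme LYZ at 0 to 0.213 CPM and 40.2 to 45.3 CPM (8.42). LYZ shares 34.7% of its exon bases with another annotated gene. Since reads were counted without strand, the reads of such overlapping genes cannot be told apart.

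The carcinoembryonic antigen-related adhesion molecules followed, with CEACAM5 at 9.95 to 10.1 CPM in MI and 334 to 353 CPM in MII (5.09) and CEACAM6 at 747 to 791 CPM in MII (2.88). The acute-phase amyloid genes SAA1 (10.4 to 11.1 against 0.941 to 2.25 CPM, -2.74) and SAA2 (-1.72) and the elastase inhibitor PI3 (-3.37) were lower in MII. Tissue kallikreins are secreted serine proteases whose genes lie side by side on chromosome 19. Of 15 kallikrein genes, 5 passed the low-count filter, and these were higher in MII. KLK5 was at 0.206 to 0.298 CPM in MI and 322 to 353 CPM in MII (10.39), KLK6 at 0.667 to 1.19 and 304 to 326 CPM (8.35) and KLK7 at 5.81 to 6.44 and 139 to 144 CPM (4.51). KLK5 and KLK6 had at most 1.19 CPM in MI and passed the filter through the MII libraries, so the count of members says nothing beyond these values.

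Genes of the RAS pathway were read next, because the lines were made to differ in HRAS. All 30 listed genes could be tested, and 20 were higher in MII and 7 lower (median 0.54). Apart from HRAS, the ETS factors that ERK signalling induces were higher. ETV1 was at 1.06 to 1.33 CPM in MI and 27.5 to 27.9 CPM in MII (4.57), ETV4 at 3.89 to 4.97 and 36.7 to 38.2 CPM (3.09) and ETV5 at 10.2 to 12.4 and 19.6 to 20 CPM (0.80). PHLDA1, another gene downstream of ERK, was at 153 to 162 and 658 to 702 CPM (2.12). Phosphatases that switch ERK off did not move together: DUSP4 was higher (592 to 601 against 1354 to 1392 CPM, 1.21) and DUSP6 lower (146 to 162 against 56.7 to 61.3 CPM, -1.37). MYC, a growth-promoting transcription factor, was at 228 to 234 CPM in MI and 54.4 to 57.5 CPM in MII (-2.03). NRAS was slightly lower (-0.27).

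The growth factors and receptors upstream were divided. Of 13 EGF family ligands and ERBB receptors tested, 7 were higher in MII and 3 lower (median 0.22). EGFR itself was at 146 ± 14 CPM in MI and 72.6 ± 2.27 CPM in MII (SD, n = 3, 2-fold lower), and its ligand HBEGF was also lower (-1.42), while the ligands AREG (0.92) and EREG (1.26) and the receptors ERBB2 (0.66) and ERBB3 (0.42) were higher. Of 10 AP-1 subunits, which join into the transcription factor downstream of ERK and JNK, 4 were higher and 5 lower (median -0.39). FOS was at 186 to 263 CPM in MI and 66 to 69 CPM in MII (-1.66), whereas ATF3 (1.53) was higher. The AP-1 median depended on the tool and lay between -0.42 and -0.01 over the alternatives.

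The TGFβ pathway itself was differently equipped in the 2 lines, although both had been stimulated. Of 28 ligands, receptors and SMADs tested, 16 were higher in MII and 6 lower (median 0.40). Among the ligands, TGFB2 was at 0.618, 0.935 and 0.824 CPM in MI and 69.5, 73.8 and 72.7 CPM in MII (6.48, SE 0.12, adjusted p = 1.70e-22), whereas TGFB1 was at 11.4 to 13.7 CPM in MI and 3.84 to 4.39 CPM in MII (-1.64). The activin subunit INHBA was higher (21.5 to 24.2 against 75.1 to 78.1 CPM, 1.74), as was GDF15, a stress-induced ligand of the family (13.8 to 14.8 against 282 to 323 CPM, 4.41). Among the receptors, TGFBR2 was at 78.9 to 84.9 CPM in MI and 193 to 201 CPM in MII (1.28), and the coreceptor TGFBR3 was lower (-2.06). TGFBR1 was at 76.3 to 86.9 and 80.6 to 90.6 CPM and did not pass the test (adjusted p = 0.315). Of the signal carriers, SMAD3 was higher (0.86, with 54.1 to 60.5 CPM in MI), SMAD2 was slightly lower (-0.13, adjusted p = 0.0222, and no longer past the threshold without the first or the third MII library, at -0.13 and -0.11), and SMAD4 lay at 70.8 to 72.9 and 69.7 to 74.4 CPM (0.0056, SE 0.06, adjusted p = 0.94).

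Direct targets and feedback genes of the pathway did not lie on a common side. Of 30 tested, 14 were higher in MII and 12 lower (median 0.09). The inhibitory SMAD7 was at 11.6 to 13.5 and 8.25 to 9.28 CPM (-0.49, SE 0.11, adjusted p = 6.05e-04), and SNAI1, an EMT transcription factor, was at 3.85 to 4.17 and 3.23 to 3.98 CPM and did not pass the test (adjusted p = 0.349). The targets lower in MII included ID3 (214 to 220 against 37.1 to 39.5 CPM, -2.51), ID1 (-1.61) and the matrix protein TGFBI (798 to 839 against 333 to 337 CPM, -1.29). ID1 and SNAI1 lie on chromosome 20, whose genes were shifted downwards in MII.

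On the other side, the matrix protein and TGFβ activator THBS1 was at 66.4 to 72.4 CPM in MI and 653 to 657 CPM in MII (3.24, SE 0.05). The adhesion scaffold NEDD9 (12.2 to 14.7 against 74.2 to 78.3 CPM, 2.53), the decoy receptor BAMBI (1.84) and the inhibitory SMAD6 (1.61) were also higher. SOX4, a transcription factor that TGFβ induces, was at 186, 194 and 194 CPM in MI and 386, 381 and 393 CPM in MII (1.02, SE 0.05, adjusted p = 6.38e-15), without overlap. It did not pass a test against a log2 fold-change of 1 (edgeR glmTreat, adjusted p = 0.828). In the interaction test given further on, 0 of 7 SOX genes had a line difference shifted upwards by TGFβ and 2 downwards. Over all genes tested for the interaction these shares were 12.6% and 9.75%. Of 7 SOX genes tested out of 19, 5 were higher and 2 lower (median 1.87, but below 0 without the low-count filter), with SOX9 at 36.1 ± 4.23 and 132 ± 5.61 CPM (SD, n = 3, log2 fold-change 1.87), SOX6 at 3.27 and SOX15 at -3.68 on the log2 scale.

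EMT and mesenchymal genes were more often lower than higher in MII, with 19 lower and 10 higher of 33 tested (median -0.65, against 0.09 in unstimulated spheres). Fibronectin, encoded by FN1, was at 242, 266 and 228 CPM in MI and 140, 153 and 139 CPM in MII (-0.77, SE 0.06). The vimentin gene VIM was at 6.16 to 7.62 and 6.43 to 10.5 CPM, which overlapped (0.19, adjusted p = 0.331). SNAI2, which encodes SLUG, was at 7.74 to 8.95 and 1.59 to 2.62 CPM (-2.02), and the receptor kinase AXL was lower as well (-2.13). Higher were ITGB3 (2.42 to 3.7 against 60.5 to 66.2 CPM, 4.35), DKK1 (3.33), S100A4, the matrix glycoprotein TNC (60.1 to 66.5 against 167 to 170 CPM, 1.42) and CDH2 (0.89). ITGB3 shares 35.7% of its exon bases with another annotated gene.

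Matrix genes changed chain by chain. Of 24 collagen chains tested out of 38, 8 were higher in MII and 10 lower (median -0.09), and 7 in each direction were DEGs. COL12A1 (9.97 to 10.9 against 125 to 128 CPM, 3.61) and COL18A1 (0.309 to 1.7 against 53.2 to 65.4 CPM, 6.03) stood opposite COL5A3, COL3A1 and COL17A1. Of 16 laminin and hemidesmosome genes 7 were higher and 8 lower (median -0.11). Of 17 integrins 8 were higher and 5 lower (median 0.12), with ITGB8 (117 to 139 against 466 to 490 CPM, 1.89) and ITGA5 (132 ± 2.45 against 32.7 ± 2.16 CPM, SD, n = 3, -2.01) as examples. Metalloproteinases and their inhibitors were split as well, 8 higher and 6 lower of 20 (median 0.15). MMP7 was at 0.667 to 1.03 and 26.1 to 28.9 CPM (5.11) and MMP28 at 238 to 263 and 11.2 to 11.9 CPM (-4.43). Of 19 genes for plasminogen activation and serpins 7 were higher and 9 lower (median -0.0045), among them the activator PLAU (132 to 142 against 21.1 to 27.5 CPM, -2.51) and the acute-phase serpin SERPINA3 (5.26).

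Genes for DNA synthesis were modestly higher in stimulated MII, and genes for mitosis were on balance lower. Of 53 S phase genes, all tested, 40 were higher in MII and 1 was lower (median 0.41), and 3 were DEGs. CDC45, part of the replicative helicase, was at 4.79, 5.82 and 5.57 CPM in MI and 12.2, 11.5 and 12 CPM in MII (1.13, SE 0.13, adjusted p = 5.62e-08), the nuclease EXO1 was at 5.04 to 6.12 and 11 to 13.1 CPM (1.10) and the helicase BRIP1 at 6.9 to 9.22 and 16.2 to 17.4 CPM (1.08). The helicase subunit MCM5 was also higher (26 to 26.6 against 41.1 to 49.2 CPM, 0.78), whereas the polymerase clamp PCNA was at 123 ± 7.43 and 114 ± 0.445 CPM (SD, n = 3) and did not pass the test (-0.10, adjusted p = 0.0951), but did without the second MI library (-0.15). ORC1, an origin recognition subunit, was at 5.81 to 7.31 and 6.68 to 7.12 CPM, which overlapped (0.13, adjusted p = 0.435). GINS1 on chromosome 20 was the member that was lower (-0.50).

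Of 59 G2/M phase genes tested, 7 were higher in MII and 30 lower (median -0.29), and 6 were DEGs, all of them lower. The mitotic phosphatase CDC25B was at 41.6 to 52.8 CPM in MI and 6.89 to 9.07 CPM in MII (-2.54), the securin PTTG1 at 57.5 to 66.4 and 16.4 to 19.6 CPM (-1.76) and cyclin B1, encoded by CCNB1, at 79.4, 70.8 and 87.8 and 30.3, 26.3 and 31 CPM (-1.44, SE 0.08, adjusted p = 1.09e-13). CCNB2 (21.5 to 27.2 against 9.48 to 10.9 CPM, -1.24), the kinase AURKA (34.7 to 42.4 against 14.7 to 20.1 CPM, -1.17) and the APC/C activator CDC20 (24.9 to 28.1 against 10.1 to 13.9 CPM, -1.13) completed the DEGs. The 6 genes, which were picked as DEGs, did not overlap between the lines, beside 33.6% of all genes tested that were lower without overlap. The proliferation marker MKI67 was at 25 to 33.9 and 28.8 to 33 CPM (0.04, adjusted p = 0.736), and the mitotic kinase CDK1 was slightly higher (39.9 to 53.8 against 51.1 to 56.6 CPM, 0.21, adjusted p = 0.0258) with ranges that overlapped. The call for CDK1 was lost in turn without the first or the second MI library and without the first or the second MII library, with log2 fold-changes of 0.21, 0.09, 0.19 and 0.19, and with DESeq2 (0.18, adjusted p = 0.193).

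The regulators around these genes were likewise mixed. Of 28 cyclins, cyclin-dependent kinases and their inhibitors, with the E2F and RB families, 11 were higher and 11 lower (median 0.11). CCND1, the cyclin of early G1, was at 179 to 189 and 215 to 217 CPM (0.24), its kinase CDK6 at 197 to 202 and 292 to 326 CPM (0.62) and the alternative kinase CDK4 at 44.8 to 46.8 and 31.2 to 32.9 CPM (-0.52). CDK4 shares 44.2% of its exon bases with another annotated gene. The CDK inhibitor p21, encoded by CDKN1A, was at 480 to 498 and 600 to 637 CPM (0.36). Of 34 genes for homologous recombination and the Fanconi pathway 14 were higher and 7 lower (median 0.22), with BRCA1 at 14.5 to 16.1 and 22.1 to 25.5 CPM (0.65, SE 0.09, adjusted p = 1.19e-06).

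In the unstimulated spheres both cell cycle lists lay lower in MII than in the stimulated ones, and the S phase list lay on the other side of 0. Without TGFβ the median of the S phase list was -1.10, with 0 members higher and 51 lower, beside 31.7% and 32.5% of all 17862 genes tested, and the difference between both conditions passed the interaction test upwards for 52 of 53, beside 12.6% of all genes tested for the interaction. The G2/M genes had a median of -1.87 without TGFβ, and 51 of 59 passed the interaction upwards, beside the same 12.6%. CDK1 and MKI67 show this at the level of single genes, with line differences of -2.07 and -2.03 without TGFβ. Both lists were therefore lower in MII without TGFβ, and only the G2/M list was on balance lower with it.

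**Figure D4:**
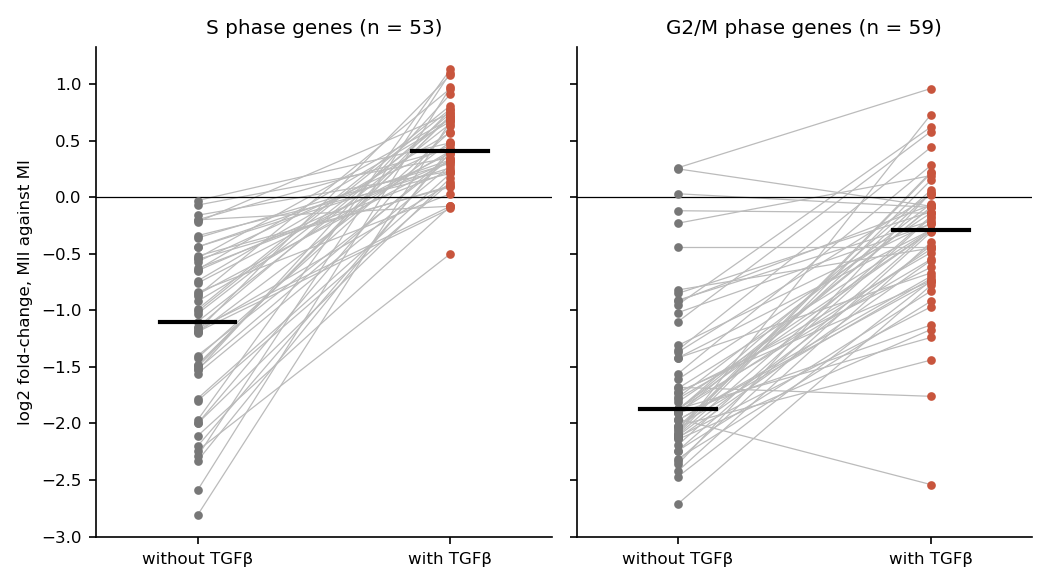
Log2 fold-change of MII against MI for each S phase gene (n = 53) and each G2/M phase gene (n = 59), without and with TGFβ, with a grey line joining the values of a gene and a black bar at the median. The medians move from -1.10 to 0.41 in the S phase genes and from -1.87 to -0.29 in the G2/M phase genes.

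The promoters of the cell cycle genes are shown because the lists, whose medians lay on opposite sides of 0, differed in the share of promoters with a motif that was not used to compile them. E2F factors are known to bind the letters TTTNGCGC near the start of many S phase genes, and the cell cycle genes homology region (CHR), with the letters TTTGAA, is known from promoters of G2/M genes. Both motifs were searched on both strands in the 250 bases before the start of each gene in the RefSeq annotation (GRCh38.p14). The E2F letters were present in 10 of 43 S phase promoters (23.3%) and in 1 of 51 G2/M promoters (1.96%), and in 2.43% of the 11351 promoters of genes tested and 1.54% of all 27305 promoters in the annotation. The CHR letters were present in 2 of 43 S phase promoters (4.65%) and 29 of 51 G2/M promoters (56.9%), against 8.88% and 13.6%. CCAAT, a common promoter element, was present in 58.1%, 72.5%, 35.1% and 33%, in the same order. Over all DEGs the shares did not follow the direction: the E2F letters were present in 1.67% of the promoters of DEGs higher in MII and 1.16% of those lower, and the CHR letters in 11.9% and 10.6%. A match is a description of letters and not of a bound site. Shown are members holding the motif of their list, chosen by smallest adjusted p among S phase genes higher and G2/M genes lower in MII. Loci not reported here were left out. The directions of the genes shown were therefore fixed by this choice. The sequences run 5′ to 3′ on the strand of the gene and end at the base before the start, with the motif of the list in capitals. HELLS is a chromatin remodeller (chr10:94545538-94545787, plus strand), MCM6 a helicase subunit (chr2:135876444-135876693, minus strand), CCNB2 encodes cyclin B2 (chr15:59104896-59105145, plus strand) and CDC20 was introduced above (chr1:43358731-43358980, plus strand).
HELLS: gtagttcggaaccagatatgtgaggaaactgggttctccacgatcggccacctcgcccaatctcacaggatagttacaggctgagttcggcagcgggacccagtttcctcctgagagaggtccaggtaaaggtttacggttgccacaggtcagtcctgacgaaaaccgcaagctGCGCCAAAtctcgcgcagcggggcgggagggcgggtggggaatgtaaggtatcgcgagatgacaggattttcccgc
MCM6: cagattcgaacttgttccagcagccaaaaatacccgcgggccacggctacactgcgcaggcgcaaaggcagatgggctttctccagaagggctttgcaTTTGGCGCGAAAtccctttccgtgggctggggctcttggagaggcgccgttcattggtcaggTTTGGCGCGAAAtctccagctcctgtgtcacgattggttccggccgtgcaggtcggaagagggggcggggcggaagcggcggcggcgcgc
CCNB2: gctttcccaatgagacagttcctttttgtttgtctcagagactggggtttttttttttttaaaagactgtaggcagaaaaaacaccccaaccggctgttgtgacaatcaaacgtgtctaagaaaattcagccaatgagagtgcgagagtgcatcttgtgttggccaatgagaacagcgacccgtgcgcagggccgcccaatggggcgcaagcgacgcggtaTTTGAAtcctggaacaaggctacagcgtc
CDC20: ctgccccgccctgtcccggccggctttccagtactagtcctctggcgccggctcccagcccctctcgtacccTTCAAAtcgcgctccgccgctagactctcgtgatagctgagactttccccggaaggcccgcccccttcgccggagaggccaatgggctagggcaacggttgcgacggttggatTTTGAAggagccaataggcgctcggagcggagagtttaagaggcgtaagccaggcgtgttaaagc
HELLS carried the letters 76 bases before its start in a reverse orientation, and MCM6 held paired copies in both orientations, the nearest 86 bases before the start. HELLS was at 18 to 19.6 CPM in MI and 36.5 to 37.2 CPM in MII (0.96), and MCM6 at 20.6 to 25.2 and 32.5 to 40.2 CPM (0.70). CCNB2 held its CHR letters 29 bases before the start and CDC20 held them 178 and 65 bases before it, in a reverse and a forward orientation, and both genes were lower in MII as given above.

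Metabolic genes of several pathways were mostly lower in MII. Of 36 hypoxia response and glycolysis genes tested, 31 were lower and 3 higher (median -0.81, against -0.43 without TGFβ). The glycolytic enzyme GAPDH was at 6257 to 6961 CPM in MI and 2291 to 2351 CPM in MII (-1.53, SE 0.05), lactate dehydrogenase A (LDHA) at 2221 to 2483 and 972 to 1034 CPM (-1.24), and the hypoxia-induced genes NDRG1 (389 to 419 against 25.7 to 28.5 CPM, -3.89) and CA9 (65.9 to 70.1 against 1.61 to 1.86 CPM, -5.25) were lower still. CA9 shares 36.1% of its exon bases with another annotated gene. HK2, the inducible hexokinase, was higher (0.93). The single genes thus ranged from a modest to a wide difference.

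Of 25 cholesterol biosynthesis genes tested, 18 were lower in MII and 3 higher (median -0.76, against -0.20 without TGFβ). The epoxidase SQLE was at 77.3 to 93.3 CPM in MI and 20.3 to 21.2 CPM in MII (-2.05), while SREBF1, a lipogenic transcription factor, was higher (203 to 233 against 512 to 577 CPM, 1.31). Of 78 cytosolic ribosomal protein genes, 76 were lower and 0 higher (median -0.86), with RPLP0 at 3769 to 4301 and 1953 to 2092 CPM (-0.96). Of 75 nuclear-encoded subunits of oxidative phosphorylation 60 were lower and 7 higher (median -0.42), and none was a DEG. The shares of mitochondrial and ribosomal RNA reads given above were higher in MII beside these values, and their part in them was not tested.

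Antioxidant genes were higher. Of 25 NRF2 targets and AKR1 reductases tested, 19 were higher in MII and 5 lower (median 0.86). AKR1C2, a reductase of steroids and aldehydes, was at 491 to 550 CPM in MI and 2153 to 2187 CPM in MII (2.09), the quinone reductase NQO1 at 188 to 221 and 546 to 577 CPM (2.83-fold) and the cystine transporter SLC7A11 at 32.9 to 36.1 and 84.6 to 93.7 CPM (1.39). The AKR1C genes are near-identical copies, so their reads could be split between them. The glutathione transferase GSTP1 was lower (-1.01). Stress pathways of amino acid shortage and protein folding were mixed: of 28 ATF4 response genes 11 were higher and 15 lower (median -0.14), among them TRIB3 (71.9 to 83.4 against 15.6 to 16.6 CPM, -2.24), and of 22 genes of the unfolded protein response 3 were higher and 9 lower (median -0.06), among them HSP90B1 (-1.03) and, on the higher side, XBP1 (182 to 190 CPM in MII, 0.87). Of 25 p53 targets 11 were higher and 8 lower (median 0.13), from TP53I3 (-1.90) to PLK2 (1.57).

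Inflammatory genes were divided. Of 19 chemokine genes 7 could be tested, with 3 higher and 3 lower in MII (median -0.29, but 0.55 with DESeq2 and 0.27, 0.09 and 0.04 without the first, the second or the third MII library). The neutrophil attractants CXCL1 (36.4 to 43 against 8.84 to 10.2 CPM, -2.01) and CXCL8 (34.3 to 41.8 against 14.2 to 18 CPM, -1.14) were lower, and CXCL17 was higher (1.63). Of 17 interleukin-1 and interleukin-6 family genes 5 were higher and 6 lower (median -0.09), with the alarmins IL1A (25.2 to 29.7 against 4.91 to 6.11 CPM, -2.27) and IL33 (435 counts in MI and 3 in MII, ratio 95.9, interval 32.6 to 467) on the lower side and LIF (9.47 to 10.9 against 43.3 to 46.1 CPM, 2.13) on the higher. Of 38 interferon-stimulated genes 13 were higher and 14 lower (median -0.02), with IFITM3 (117 to 122 against 29.5 to 30.2 CPM, -2.01) and OAS1 (114 ± 6.58 against 234 ± 9.61 CPM, SD, n = 3, 1.04). Of 19 antigen presentation genes 6 were higher and 5 lower (median 0.01), and B2M was at 900 to 1091 and 1366 to 1385 CPM (0.48). Of 19 complement and acute-phase genes 11 were higher and 7 lower (median 0.51), with the copper carrier CP at 8.63 to 9.54 and 275 to 298 CPM (4.99) and C3 at 419 to 482 and 666 to 686 CPM (0.57).

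Of 14 prostaglandin pathway genes tested 7 were higher and 5 lower (median 0.24, but -0.59 without the low-count filter). The synthase PTGES was at 886 to 940 CPM in MI and 294 to 312 CPM in MII (-1.58), and HPGD, which degrades prostaglandins, was at 158 to 189 and 1205 to 1228 CPM (2.85). Hence the last synthetic enzyme and the degrading enzyme lay on opposite sides. Of 28 aldehyde dehydrogenase and retinoid genes 11 were higher and 14 lower (median -0.13), with ALDH1A3, which makes retinoic acid, at 231 to 272 and 692 to 693 CPM (1.49). Of 29 WNT pathway genes 14 were higher and 11 lower (median 0.13), with the receptor FZD7 (5.04 to 6.71 against 70.1 to 78.1 CPM, 3.60) and the ligand WNT5A (43.7 to 45.1 against 11.1 to 15.5 CPM, -1.76). Of 22 Notch pathway genes 8 were higher and 4 lower (median 0.12), with the glycosyltransferase LFNG (6.08 to 7.31 against 31.6 to 36.5 CPM, 2.31) and the target gene HES2 (22.2 to 24.8 CPM in MII, -2.12).

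Long noncoding genes were more often higher in MII, and small RNA genes more often lower. Of 2063 long noncoding RNA (lncRNA) genes tested, 448 were DEGs higher in MII and 163 lower, with a median log2 fold-change of 0.25, whereas of 12906 protein-coding genes 1356 were higher and 937 lower, with a median of -0.03. LINC00342 was at 3.65 to 5.76 CPM in MI and 157 to 171 CPM in MII (5.27), and NRAD1, known from triple-negative breast cancer cells, at 3.09 to 3.45 and 49 to 54.8 CPM (3.99). The lncRNA gene ENSG00000266976, which has no other symbol, had 4 counts in MI and 2292 in MII, at 45.2 to 53.5 CPM (9.61). MIR205HG, the host gene of the epithelial microRNA miR-205, was at 218 to 247 and 35.7 to 38.4 CPM (-2.64), SNHG29 at 559 to 635 and 238 to 241 CPM (-1.29), and LINC00839 had 1017 counts in MI and 1 in MII. Of 130 small RNA genes tested 9 were DEGs higher and 44 lower (median -0.62), beside 12.2% and 7.55% of all genes tested. Libraries of total RNA recover such short RNAs only in part.

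The question whether the line difference depends on TGFβ was put to the interaction of line and stimulation over all 12 sphere libraries. Of 18591 genes tested 4156 passed (22.4%), 2344 with a line difference shifted upwards by TGFβ (12.6%) and 1812 downwards (9.75%). The unstimulated lines differed in 3586 DEGs of 17862 genes tested (20.1%), 12.5% higher and 7.62% lower in MII, and 64.2% passed the adjusted p. Over the 15650 genes tested in both conditions, which share no library, the line differences with and without TGFβ had a Pearson correlation of 0.874 and a Spearman correlation of 0.776 across genes, which are not independent replicates. Of the DEGs among these genes, 2103 were DEGs in both conditions, which is 70.3% of those with TGFβ and 71.2% of those without, and 1332 were higher in both, 746 lower in both and 25 on opposite sides. Of the 3138 DEGs with TGFβ, 1149 passed the interaction. In 832 the interaction had the sign of the line difference with TGFβ, which includes genes whose direction turned between the conditions. In the other 317 it had the opposite sign, so their line difference was smaller with TGFβ. All were picked for a large line difference with TGFβ, in libraries that the interaction test also uses. The split of 832 and 317 was therefore in part fixed by that choice.

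Secretory and defence genes were among those shifted upwards. LCN2 had a line difference of 2.45 without TGFβ, with a mean of 237 CPM in unstimulated MI and 1296 CPM in unstimulated MII, and of 6.43 with it, so the interaction was 3.98 (SE 0.07, adjusted p = 1.53e-32). BPIFB1 (5.33), PIGR (6.05), the ubiquitin ligase TRIM31 (2.45) and the serine protease PRSS23 (2.75) followed the same course, with lower means in stimulated than in unstimulated MI. TRIM31 had means of 507 CPM in unstimulated MI and 684 CPM in unstimulated MII, and with TGFβ was at 33.3 to 33.8 and 239 to 263 CPM. The glutamine synthetase gene GLUL turned, from a line difference of -0.88 to 1.25 (interaction 2.12). As a group, 14 of the 18 mucosal defence genes tested passed the interaction upwards and 1 downwards, beside 12.6% and 9.75% of all genes tested.

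The genes shifted downwards with the smallest adjusted p included FABP4, FABP5, LIPG, PADI3, TCN1 and FN1. The fatty acid carrier FABP4 was higher in unstimulated MII (0.88) and lower in stimulated MII, at 138 ± 13 CPM in MI and 33.9 ± 0.55 CPM in MII (SD, n = 3, log2 fold-change -2.02, interaction -2.91, SE 0.09). FABP5 (230 to 252 against 22.4 to 24.8 CPM, interaction -2.58), the endothelial lipase gene LIPG (144 to 153 against 35.5 to 38.3 CPM, interaction -2.79) and the deiminase PADI3 (70.7 to 73.5 against 4.9 to 5.83 CPM, interaction -4.80) shifted in the same direction. In the unstimulated lines FABP5 had means of 40.6 and 24.2 CPM, LIPG of 17.5 and 30.3 CPM and PADI3 of 3.11 and 6.43 CPM, in MI and MII. TCN1 kept its excess in MII, but the excess was smaller with TGFβ (interaction -2.58). FN1 turned from a line difference of 1.28 without TGFβ to -0.77 with it (interaction -2.06, SE 0.08, adjusted p = 2.31e-22), with means of 54 CPM in unstimulated MI and 132 CPM in unstimulated MII. In the hypoxia and glycolysis list 23 of 36 genes tested passed the interaction downwards and 1 upwards, and in the cholesterol list 18 and 1 of 25. Over all genes tested these shares were 9.75% downwards and 12.6% upwards.

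Among the 25 DEGs on opposite sides in both conditions were 5 replication-dependent histone genes. H3C2 was at 47.6 ± 2.43 CPM in MI and 116 ± 7.98 CPM in MII with TGFβ (1.29), and at 46.3 ± 1.97 and 10.8 ± 0.984 CPM without it (-2.12; SD, n = 3). The retinol dehydrogenase RDH10 was at 72.1 to 86.8 and 197 to 202 CPM with TGFβ (1.33) and at -1.15 on the log2 scale without it, and PADI3 turned the other way. CDC45, EXO1 and BRIP1 of the S phase list were among these genes as well.

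The line difference was not even across chromosomes. The values here cover the genes tested whose means in the 2 stimulated groups summed to at least 2 CPM. On chromosome 9, with 589 such genes, the median log2 fold-change was 0.55 with TGFβ and 0.52 without. With TGFβ 87.3% of them were above 0. The 383 genes on chromosome 20 had medians of -0.57 and -0.58, and 78.6% were below 0. The other 21 chromosomes had medians between -0.10 and 0.06. Along chromosome 9 the medians of 12 successive segments of 50 genes lay between 0.47 and 0.74, and along chromosome 20 those of 8 segments lay between -0.89 and -0.39, while 16 of 264 segments elsewhere exceeded 0.25 in either direction. On chromosome 9 there were 141 DEGs higher in MII and 17 lower, and on chromosome 20 there were 26 and 73. Of all genes tested, without this CPM limit, 12.2% were DEGs higher in MII and 7.55% were DEGs lower.

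**Figure D5:**
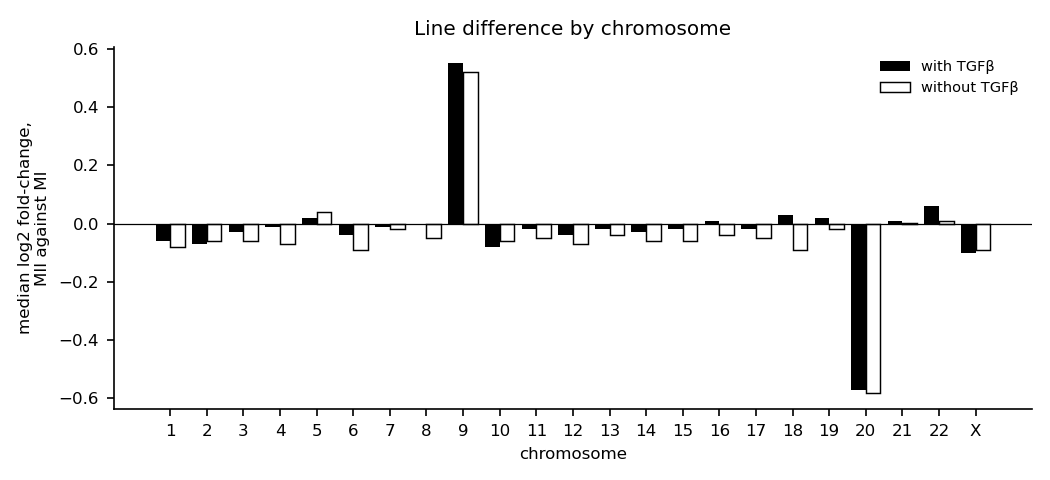
Median log2 fold-change of MII against MI by chromosome, with TGFβ (filled bars) and without (open bars). Only genes tested whose means in the 2 stimulated groups summed to at least 2 CPM are included. Chromosome 9 stands at 0.55 and 0.52, chromosome 20 at -0.57 and -0.58, and the others within -0.10 to 0.06.

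Genes named here on chromosome 9 include LCN2, AQP3, CA9, LINGO2, IL33, TGFBR1, TNC and PTGES, and those on chromosome 20 include BPIFB1, CDC25B, AURKA, GINS1, PCNA, ID1, SNAI1, PI3 and TRIB3. With the members on chromosomes 9 and 20 left out, a choice made after these values were seen, 39 of 50 S phase genes were higher and 0 lower (median 0.43), and 7 of 53 G2/M genes were higher and 26 lower (median -0.29). The gene copy number of the lines is not given by the files, and its part in these medians was not tested.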

How the data were processed

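RNA-seq of 3D spheres was analysed for stimulated MII (3 libraries) and stimulated MI (3 libraries), with the 6 unstimulated libraries of the same lines for comparison. The deposited values are raw counts per gene. According to the file headers and the study's methods, the authors trimmed the reads with Trimmomatic, aligned them with STAR to GRCh38.p13 and counted them with featureCounts (Subread 2.0.0) on GENCODE 38 at a mapping quality of at least 30. The counting did not use strand, so the reads of overlapping genes cannot be told apart. Gene names came from GENCODE 44 by Ensembl ID (60463 of 60708 genes, 99.6%), and promoter sequences came from RefSeq on GRCh38.p14.

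Counts were fitted with edgeR 4.0.16 (filterByExpr, TMM, quasi-likelihood test) in R 4.3.3 with limma 3.58.1, on the 6 libraries of each comparison or on all 12 for the interaction, and p-values were adjusted by the Benjamini-Hochberg method over all genes tested. CPM of all 12 libraries were placed on a common TMM scale. Tables and figures were made with pandas 2.3.3 and matplotlib 3.10.9. The fit was tested on simulated data. The alternatives were DESeq2 1.42.0, its size factors in edgeR, other low-count filters, gene-length correction, thinned counts, a replicate block, all libraries in a joint fit, a test against the fold threshold and leaving out libraries.

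The members and lists were chosen with earlier results of these data known. Named were HRAS, the protein-coding DEGs without overlap and with a mean of at least 10 CPM that had the 10 largest and 10 smallest log2 fold-changes or the 5 smallest adjusted p in each direction, the 3 lncRNA genes in each direction with the smallest adjusted p, list members that were DEGs, had the 3 highest CPM or define their list, genes the study examines, and the 6 genes in each direction with the smallest adjusted p of the interaction. Not every gene that met the rule is named, and list members named outside it were chosen after their values were seen. Some genes and loci that met the rule are not reported here.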

Additional observations from a re-analysis of the deposited data

Results flagged for a closer look

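The line difference with TGFβ differed from that without it for 4156 genes by the interaction test (22.4% of all genes tested for it). It also differed for 29 of the 56 genes named by a fixed rule and reported here, 15 of them shifted upwards and 14 downwards. That rule named 6 genes in each direction for their smallest adjusted p of the interaction. These passed by selection, so the 29 of 56 cannot be set against the share over all genes. In the secretory and defence genes the interaction on the log2 scale was 6.05 for PIGR, 5.33 for BPIFB1, 3.98 for LCN2 and 2.75 for PRSS23. The ubiquitin ligase gene TRIM31 had 2.45 and the metabolic gene GLUL had 2.12. S100A8 had 2.03, but it was lower in MII in both conditions, so its deficit was smaller with TGFβ. In cell cycle and repair genes the interaction was 2.28 for CDK1, 1.92 for ORC1, 1.59 for BRCA1, 0.96 for CCND1 and 0.58 for CCNB1, which also kept a smaller deficit in MII. GRHL2 had 0.27, and the lncRNA genes NRAD1 and LINC00342 had 1.89 and 1.39.

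Below 0, the interaction was -4.80 for PADI3, -2.91 for FABP4, -2.79 for LIPG and -2.58 for FABP5. Genes higher in MII whose excess was smaller with TGFβ were TCN1 (-2.58), MGP (-2.17), KLK6 (-1.08), HRAS (-0.70) and EPCAM (-0.43). The call for KLK6 was lost with thinned counts (-0.92), without the first or the second unstimulated MI library (-0.78 and -0.95) and without the second stimulated MI library (-0.93). FN1 had -2.06, CLCA2 -1.83, AQP3 -1.25, MIR205HG -0.80 and SNHG29 -0.26. The causes of these shifts were not tested.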

How the results depend on the processing

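The 3138 DEGs of the stimulated spheres became 3388 with DESeq2, 2831 of them shared, and 3141 with a replicate block. Lower DEGs rose to 1923 without a low-count filter, which tests more genes and moved the median of all genes to -0.26. With at least 10 counts in every library 1988 remained (1265 higher, 723 lower), and 2050 passed a test against a log2 fold-change of 1, with 733 lower. This test left 256 list members, 126 higher and 130 lower. The unstimulated comparison gave 2146 DEGs with at least 10 counts (1309 higher, 837 lower). Leaving out 1 library gave 3186 to 3431 DEGs with TGFβ (higher 1987 to 2233, lower 1198 to 1352), 3793 to 3926 without (higher 2293 to 2478, lower 1416 to 1500) and 3640 to 4750 interaction genes (higher 1844 to 2415, lower 1581 to 2378). The share of interaction genes shifted upwards was 56.4% as reported. With single libraries left out it lay between 46.5% (second stimulated MI library) and 57.7% (second unstimulated MII library). It was 48.7% without the first stimulated MI library, 49.2% without the third stimulated MII library and 50.5% with thinned counts. The excess of upward shifts thus depended on the setting. Same-numbered stimulated libraries deviated from their group means with correlations of -0.014 to 0.0181, so the numbers were not treated as pairs, and the replicate block gave 3587 DEGs without TGFβ and 4273 interaction genes, or 3137, 3584 and 4321 with a gene-length correction. Of list counts 1380 of 1466 stayed within 1.5 times the value reported, while 174 of 733 list medians moved and 17 of 43 lay on both sides of 0 over the alternatives. Without the low-count filter the median turned to below 0 for the SOX genes, kallikreins (-0.48), prostaglandin genes (-0.59), WNT genes (-0.21), TGFβ targets (-0.09), endothelial and blood cell markers (-0.09), keratins (-0.07), MHC genes (-0.06), integrins (-0.05) and Notch genes (-0.02). With at least 10 counts in every library it turned for the aldehyde dehydrogenase (0.08), serpin (0.05) and interferon lists (0.0041), and the chemokine, cyclin, interleukin and metalloproteinase lists turned under other settings. Leaving out 1 library also turned medians near 0: TGFβ targets without the third MI library (-0.02) or the first, the second or the third MII library (-0.08, -0.06 and -0.03), integrins without the first or second MII library (-0.02 and -0.0012), MHC genes without the third MII library (-0.07), serpins without the second (0.02), cyclins without the second MI library (-0.0038) and interferon genes without the third (0.007). No named gene turned its direction where it passed an adjusted p of 0.05 in the reported or the alternative fit. At 15370453 counts or more per library, genes of a few counts rest on counting error that 3 libraries cannot narrow.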

Other observations

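Further gene families, chosen after their values were seen, also differed between the stimulated lines. Their counts, here and in the next paragraph, stand beside 31.1% higher and 31.6% lower over all genes tested. Members such as TMPRSS2 (means of 0.231 CPM in MI and 29.5 in MII) and CDH19 (0.0313 and 380) passed the low-count filter through the MII libraries. The counts therefore describe the genes tested and not whole families. Of 15 clustered protocadherin genes of the PCDHB family tested, 12 were higher in MII and 1 lower (median log2 fold-change 1.64 with and 2.12 without TGFβ), from PCDHB16 (-2.53) to PCDHB4 (6.69). These genes are similar in sequence and lie side by side, so their reads could be split. Of 9 claudin genes, which seal tight junctions, 8 were higher and 0 lower (median 1.20, highest CLDN10 at 3.40). Of 11 cadherin genes 9 were higher and 1 was lower, CDH13 at -5.22. Of 9 TMPRSS genes, which encode membrane-bound serine proteases, 7 were higher and 1 lower (median 2.38), with TMPRSS2 at 6.94. Of 6 genes of the TLE family of corepressors 5 were higher and 1 lower.

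Of 58 small nucleolar RNA genes 3 were higher in MII and 36 lower (median -0.87), and of 34 spliceosomal RNA genes 3 were higher and 19 lower (median -0.89 with and -0.06 without TGFβ). Of 13 mitochondrial protein genes 9 were higher and 0 lower (median 0.70).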
